A study of Homo sapiens with 7 samples.

Results

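The subject is a set of 3 read clusters of the translation initiation factor subunit eIF3a at histone genes of the HIST2 locus on chromosome 1, HIST2H2BF, HIST2H2AA3 and HIST2H2BE. They were taken from a list of 4013 genomic intervals as the entries on the minus strand of chromosome 1 that overlap windows set around these 3 genes on the human build hg19. Each window held 1 entry and each entry 1 read cluster, so the set is 3 of 3604 clusters, or 3 of the 3566 on the primary chromosomes. The genes were chosen by their reads per cluster in this same list, so those numbers are a description and carry no test.

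The data came from PAR-iCLIP of eIF3a in HEK293T, a human embryonic kidney line carrying the SV40 large T antigen, with 2 replicates. Cells took up 4-thiouridine for 8 h and were exposed to ultraviolet light of 354 nm, which joins protein to RNA at the labelled uridines, and RNA held by an antibody against eIF3a was sequenced. The other 5 of the 7 samples, not analysed here, were m6A libraries from HEK293T after heat shock (1 sample), HepG2 liver carcinoma cells after heat shock (2 samples) and HepG2 controls (2 samples), where heat shock was 1 h at 42 °C followed by 6 h at 37 °C. The eIF3a list pools what its authors put into it and names no replicate, so no value has a replicate error, and the depth of the libraries is unknown. All cells of the eIF3a samples were 1 line under 1 treatment, with no untreated or no-antibody sample used here as a background.

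eIF3 is the large complex that brings the small ribosomal subunit to an mRNA and takes part in scanning to the start codon; eIF3a is its largest subunit and part of its scaffold. HIST2H2BF and HIST2H2BE encode forms of histone H2B, and HIST2H2AA3 encodes a form of histone H2A. H2A and H2B pair with each other and join histones H3 and H4 in the nucleosome. Most such genes belong to the replication-dependent class. Their mRNAs are short and have no introns, and they end in a stem-loop bound by the stem-loop binding protein in place of a poly(A) tail. They are made and translated mainly while DNA is being copied. Some of these genes, HIST2H2BE among them, also give polyadenylated mRNA in some cells.

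All 3 genes were found in the RefSeq table of the build GRCh38.p14, under their present symbols H2BC18 (HIST2H2BF), H2AC18 (HIST2H2AA3) and H2BC21 (HIST2H2BE), and all 3 lie on the minus strand there, as the clusters do on hg19. No hg19 annotation was used, so the gene of each cluster rests on the window that chose it. There, 11 protein-coding histone genes and 2 histone pseudogenes stand between and including HIST2H2BF and HIST2H2AB. The list held 3 entries from 100 kb left of the first member to 100 kb right of the last, namely the members, with 0 entries on the plus strand and 0 further clusters on either strand. The nearest other cluster to the right was 349.951 kb away with 25 reads, and the nearest to the left was 3139.79 kb away with 4 reads. A gene of this block that is not listed may still have been bound, since the filters of the list are unknown.

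The sequences below come from RefSeq windows on GRCh38.p14, minus strand, and show the mRNA starts of the members, since the listed widths will be set against the distance to the first ATG. Each is 30 bases, 5′ to 3′. For the H2B genes the stretch ends with the first ATG after the RefSeq start, in capitals. For HIST2H2AA3 no ATG fell within the 50 transcribed bases of the window, so the first 30 bases are shown with the first base in capitals. They lie at chr1:149812321-149812350 (HIST2H2BF), chr1:149842721-149842750 (HIST2H2AA3) and chr1:149886638-149886667 (HIST2H2BE).
HIST2H2BF: gtctcttttctcttttttcgcgcaaaaATG
HIST2H2AA3: Gactttcccgatcgccaggcaggagtttct
HIST2H2BE: taagccgcgtttgtactgtgtcttaccATG

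The H2B starts were rich in thymine, the base that is uridine in RNA and that 4-thiouridine replaces. Of the first 50 transcribed bases, 23 were T in HIST2H2BF (46%), 14 in HIST2H2AA3 (28%) and 20 in HIST2H2BE (40%). The median over 35116 RefSeq windows was 20%. As much T as in HIST2H2BF was found in 0.874% of the windows, as much as in HIST2H2AA3 in 22.0%, and as much as in HIST2H2BE in 3.09%. These are bases of the reference and not of the reads, and whether the share of T bears on the read numbers was not tested.

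The cluster at HIST2H2AA3 held the most reads of any cluster in the list, and the H2B clusters were also long and rich in reads. Splitting its coverage profile into reads of 25 nt gave HIST2H2AA3 172 reads over 522 nt (exact Poisson interval 147 to 200). HIST2H2BF had 94 reads over 301 nt (interval 76.0 to 115) and HIST2H2BE 73 reads over 332 nt (interval 57.2 to 91.8). These intervals, at 95%, treat the reads as Poisson counts and cover no other error. They are approximate, because no start position of the members held more than 1 read. They are no test between the members, whose reads chose them. By reads the members took places 1 (HIST2H2AA3), 10 (HIST2H2BF) and 26 (HIST2H2BE) among the 3566 primary clusters. Of those clusters 27 (0.757%) held 73 or more reads, the level of the lowest member, and this share is the choice of the members seen from the other side. The cluster in place 2 had 124 reads, and the remaining 444 clusters of chromosome 1 had at most 74 reads, with a median of 7. The members were 0.671% of the clusters on chromosome 1 and held 339 of its 5247 reads, or 6.46%, a share that the choice of the members makes high.

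**Figure D1:**
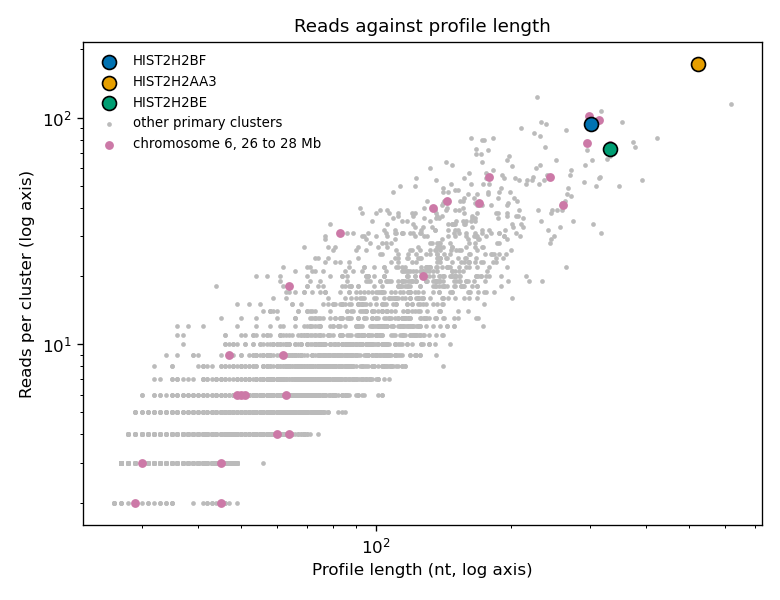
Reads per cluster against profile length in nt, both on log axes, with 1 point for each of the 3566 primary clusters. The 3 HIST2 clusters (large points) lie at 301 to 522 nt and 73 to 172 reads, close to the richest chromosome 6 clusters apart from HIST2H2AA3, which stands above every other point.

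Reads per length were less unusual than reads. HIST2H2AA3 had 33.0 reads per 100 nt of profile, HIST2H2BF 31.2 and HIST2H2BE 22.0. The 119 other primary clusters with 40 or more reads had a median of 27.9 and reached 54.4. In profile length HIST2H2AA3 took place 2 of the primary clusters, HIST2H2BE place 10 and HIST2H2BF place 22.

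The highest coverage was 22 reads at HIST2H2AA3, 18 at HIST2H2BF and 12 at HIST2H2BE. No start position of the members held more than 1 read, so the 172, 94 and 73 reads stood at as many different positions. Their reads are thus also counts of occupied start positions. With 1 read of 25 nt per position the coverage cannot pass 25. The other 3563 primary clusters stayed under this limit too, with a highest coverage of 24, so it does not mark the members out. The richest chromosome 6 clusters and the clusters most like the members, given below, also had as many occupied start positions as reads. Whether the whole list keeps only 1 read per position was not tested. HIST2H2AA3 and HIST2H2BF filled 34.5% and 33.9% of their possible start positions, and HIST2H2BE filled 23.7%. The other clusters with 40 or more reads filled 14.4% to 60.8%, with a median of 32.9%, so the members were within their range.

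The direction of the profiles was settled from copies within the list. Among clusters of 10 or more reads, 8 pairs on opposite strands had profiles that were mirror images of each other and 0 such pairs had identical ones, while on the same strand 34 pairs were identical and 0 were mirror images. Profiles therefore run from left to right on the genome whatever the strand, and for the minus-strand members the last profile position is the upstream one, toward the 5′ end of the RNA. Positions below count from 1 at that upstream end. In iCLIP the copying of RNA often stops at the crosslinked base, so the 5′ end of a read tends to lie beside the contact.

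Reads of all 3 members lay toward the upstream end of the profile. The median read 5′ end was at position 144.5 of 498 possible start positions in HIST2H2AA3, at 98.5 of 277 in HIST2H2BF and at 113 of 308 in HIST2H2BE. When the possible start positions of a profile were divided into 5 equal segments, the most upstream one held 67, 31 and 21 reads in HIST2H2AA3, HIST2H2BF and HIST2H2BE (39.0%, 33.0% and 28.8%). In HIST2H2AA3 the next 4 segments held 39, 19, 22 and 25 reads. In HIST2H2BF they held 20, 14, 13 and 16 reads. In HIST2H2BE they held 19, 10, 13 and 10 reads. In each member the third segment and those after it held fewer reads than either of the upstream pair. The share of reads nearer the upstream than the downstream end was 68.0% in HIST2H2AA3, 67.0% in HIST2H2BF and 57.5% in HIST2H2BE. Over the 119 other clusters with 40 or more reads its median was 56.1% and its range 31.1% to 87.5%, and 49 of them reached the 57.5% of the lowest member.

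**Figure D2:**
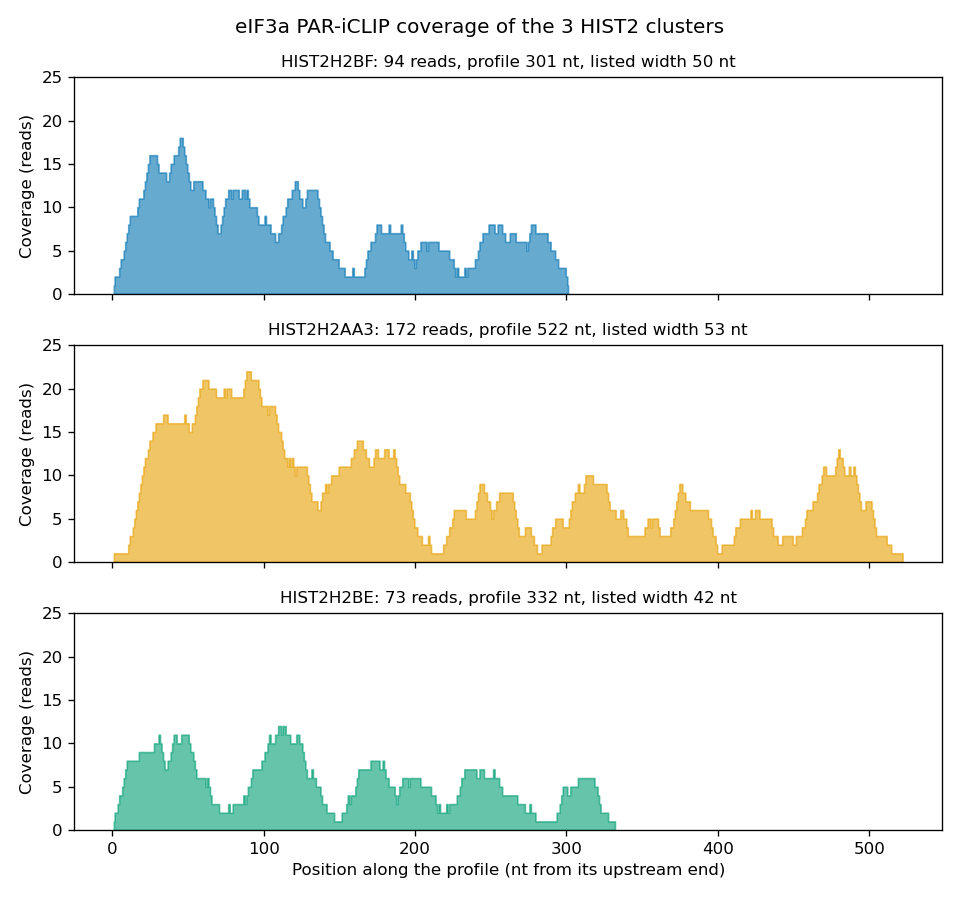
Coverage in reads along each HIST2 profile, in nt from its upstream end, on shared axes. The summits of 18 (HIST2H2BF), 22 (HIST2H2AA3) and 12 (HIST2H2BE) lie at positions 45, 89 and 110, and each profile goes on at lower coverage to its downstream end.

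The summit of HIST2H2AA3 was broad. Coverage stayed at 11 reads or more over the 100 nt from position 21 to 120, with its highest value of 22 first reached at position 89, and a lower rise peaked at 14 reads at position 162. Its start positions included an unbroken row of 12 neighbours, at positions 80 to 91. Coverage fell to 1 read at 14 positions between 211 and 402, and a separate rise near the downstream end reached 13 reads at position 480. The longest distance between neighbouring read starts was 23 nt, so the reads joined up over the whole 522 nt.

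HIST2H2BF had its summit of 18 reads at positions 45 and 46 and kept at least 9 reads from position 12 to 68. Lower rises reached 12 reads at position 77 and 13 at position 121. Beyond these, coverage in the downstream part did not pass 8 reads, and it was lowest at 2 reads, between positions 154 and 234. Its longest distance between read starts was 19 nt, and its longest row of neighbouring starts was 7, at positions 21 to 27.

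HIST2H2BE had the lowest summit of the 3. Its rise of 11 reads at position 31 and its summit of 12 reads, first reached at position 110, were nearly equal, and further rises reached 8 reads at position 171 and 7 at position 233. Only 12.0% of its profile had 10 or more reads of coverage, against 31.9% in HIST2H2BF and 35.1% in HIST2H2AA3. Neighbouring starts lay 1 nt apart in 34.7% of cases in HIST2H2BE, 48.4% in HIST2H2BF and 55.0% in HIST2H2AA3, beside a median of 47.5% in the other clusters with 40 or more reads (range 21.1% to 74.6%).

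The listed intervals showed only a small part of these clusters. On hg19, HIST2H2BF was listed at chromosome 1, 149783879 to 149783928, which is 50 of 301 nt (16.6%). HIST2H2AA3 was listed at 149814266 to 149814318, or 53 of 522 nt (10.2%), and HIST2H2BE at 149858191 to 149858232, or 42 of 332 nt (12.7%). The 3 intervals held 145 of 1155 profile nt in all. For a cluster with several entries the widest entry alone was used here and below, so its full listed share can be larger. Each member had 1 entry. By this measure the other 3563 primary clusters were listed at a median of 97.1% of their profile, 2061 of them to within 1 nt of its length. A share smaller than the 16.6% of HIST2H2BF was found in 4.74% of them. Among the 119 other clusters with 40 or more reads the median was 74.2%, and 19 of the 119 were listed at a smaller share than HIST2H2BF.

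Among the longest profiles, some were listed in full and some as briefly as the members. Of the 19 other clusters of 300 nt or more, 8 were listed to within 1 nt of the profile and 3 at under 20%, and these 3 lay between 26 and 28 Mb of chromosome 6, the site of the HIST1 histone genes. Rich clusters shorter than 300 nt also had short listings, since the 19 of 119 above outnumber these 3. How many of the 19 lie in histone regions was not counted. All clusters at 27 to 28 Mb of chromosome 6 were listed at a median of 19.1%, and all at 26 to 27 Mb at 97.8%. With 20 or more reads these medians were 18.6% and 19.6%, so short listings were not particular to the members. Whether short listings go with histone regions was not tested.

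**Figure D3:**
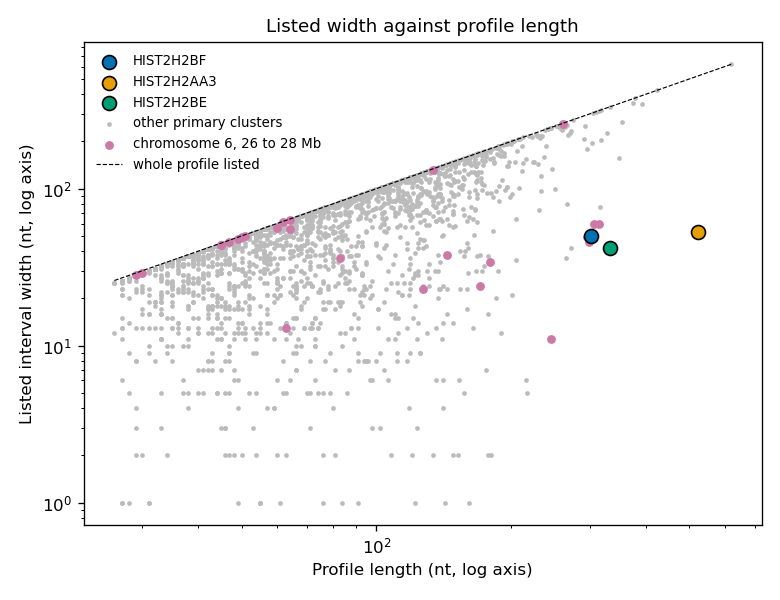
Width of the listed interval against profile length, both in nt on log axes, 1 point for each primary cluster, with a dashed line where the whole profile is listed. The HIST2 clusters lie far under the line, at 42 to 53 nt listed for 301 to 522 nt of profile, beside chromosome 6 clusters.

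In both H2B genes the listed width was within 3 nt of the distance from the RefSeq start to the first ATG. That this ATG is the start codon was not checked against an annotation. The 3 nt is the larger difference seen and not a limit set beforehand. How often the listed widths of other clusters come as close was not counted. In HIST2H2BE the RefSeq start was followed by 42 bases before the first ATG, and the listed interval was 42 nt wide. In HIST2H2BF the bases before the first ATG were 47 and the listed width 50 nt. In HIST2H2AA3 no ATG was found in the first 50 transcribed bases, and the listed width was 53 nt. The ATGs are those printed above. The lengths were compared and not the positions, because the list and the sequences are on different builds, and the annotation behind the list is not given in the sources used here.

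Where a listed interval lies within its profile is not stated, so the reads under it have only a range. Any placement of the 53-nt HIST2H2AA3 interval within the profile touches between 10 and 60 reads, and at the upstream end it touches 32. For HIST2H2BF the range is 14 to 40, with 30 at the upstream end, and for HIST2H2BE it is 7 to 22, with 19 at the upstream end. In each case most reads of the cluster lay outside the listed interval wherever it was placed.

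The H2B clusters shared reads, or reads placed alike. A run of 16 neighbouring read starts had the same spacing in HIST2H2BF and HIST2H2BE, over 71 nt, and their 25-nt reads cover 96 nt. In HIST2H2BF the 5′ ends of these reads lay at positions 174 to 245 and in HIST2H2BE at positions 162 to 233. Around the run every position over 75 nt agreed, occupied or empty. The run was 17.0% of the reads of HIST2H2BF and 21.9% of those of HIST2H2BE, whose listed intervals are 74.262 kb apart.

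The run was the longest that either H2B member had with any other cluster. The next longest run was 12 starts for HIST2H2BF, packed into 13 nt, and 11 starts for HIST2H2BE, within 24 nt. For HIST2H2AA3 the longest run with any cluster was 17 starts packed into 18 nt, which is little more than a row of neighbouring positions. Genes for H2B are close in sequence, and reads that match several places equally well can be given to more than 1 of them. Whether the genes are identical over these 96 nt was not tested, as no hg19 sequence was used. Without the run HIST2H2BF had 78 reads and HIST2H2BE 57, and counting it once brings the 167 H2B reads to 151 and the 339 reads of the 3 members to 323. In this alignment 85 starts of HIST2H2BF and 66 of HIST2H2BE fell where the profiles overlap, and 24 of each coincided outside the run. With the run, 40 starts coincided, against 34 in the next best alignment of the same profiles. Profiles this dense coincide often, so the 24 cannot be read as further shared reads.

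**Figure D4:**
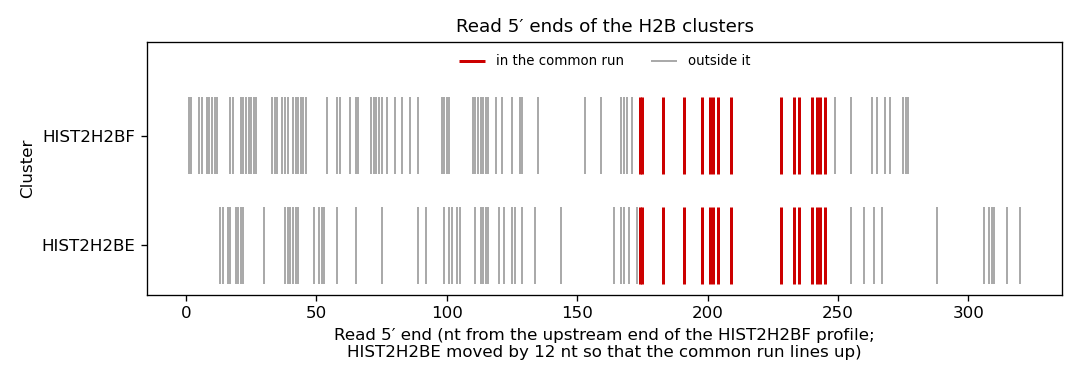
Read 5′ ends of HIST2H2BF (above) and HIST2H2BE (below), 1 line per read, in nt from the upstream end of the HIST2H2BF profile with HIST2H2BE moved by 12 nt. The 16 reads of the common run (red) line up at positions 174 to 245, and the reads outside it (grey) do not line up throughout.

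HIST2H2AA3 has a near copy in the same locus, HIST2H2AA4, on the opposite strand in RefSeq (present symbol H2AC19). Their windows from 250 bases before to 50 after the start were identical over the 299 bases they have in common, with starts 1 base apart, as their first bases show. The HIST2H2AA4 stretch is at chr1:149851061-149851090 of GRCh38.p14, plus strand, with its first base in capitals.
HIST2H2AA3: Gactttcccgatcgccaggcaggagtttct
HIST2H2AA4: Cgactttcccgatcgccaggcaggagtttc
The list had 1 entry for this pair, on the minus strand, and 0 on the plus strand of the region. The 172 reads are those listed at HIST2H2AA3. Only 50 transcribed bases of the copies were compared, against a profile of 522 nt, so whether reads of HIST2H2AA4 are among them was not tested.

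HIST2H2BE stands head to head with the H2A gene HIST2H2AC (present symbol H2AC20) in RefSeq, so that the windows of 300 bases around their starts overlap by 265 bases. The list had the HIST2H2BE cluster alone, with 0 entries on the plus strand. The promoters of the members are shown as the 30 bases ending with the TATA element, because the H2B pair has the octamer typical of H2B promoters next to it. The octamer ATTTGCAT and the letters TATAA are in capitals. The stretches are at chr1:149812399-149812428 (HIST2H2BF), chr1:149842777-149842806 (HIST2H2AA3) and chr1:149886708-149886737 (HIST2H2BE) of GRCh38.p14, minus strand.
HIST2H2BF: cgagtcttcATTTGCATacgggctcTATAA
HIST2H2AA3: ctccgtggacaatcgccgttctgtcTATAA
HIST2H2BE: ggagccctaATTTGCATaaggtggtTATAA
On either strand of the 300-base windows, ATTTGCAT was found once in HIST2H2BF, once in HIST2H2BE and not in HIST2H2AA3, and in 1.77% of all 35116 windows. TATAA was found in all 3 members and in 20.4% of windows, and CCAAT in all 3 and in 34.6%. In HIST2H2BE the 4 matches to TATAA, counted over both strands, form overlapping pairs, while the octamer and TATAA do not overlap. The stretches shown lie upstream of the RefSeq start, while the windows searched also hold 50 bases after it. A match describes letters of the DNA and says nothing of contact with eIF3a.

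Set beside the histone regions of chromosome 6, the H2B members had near neighbours in size. Between 27 and 28 Mb the 3 richest of 10 clusters held 102, 98 and 55 reads, and between 26 and 27 Mb the 3 richest of 16 held 95, 77 and 76. The cluster most like HIST2H2BF in reads and profile length was the plus-strand one at chromosome 6, 26156559 to 26156618, with 95 reads over 306 nt, a listed width of 60 nt and a coverage of up to 21. The cluster most like HIST2H2BE was the minus-strand one at chromosome 6, 26056657 to 26056699, with 76 reads over 332 nt, a listed width of 43 nt and a coverage of up to 15. HIST2H2AA3 had no such match: the nearest, a plus-strand cluster of chromosome 5 from 56471279 to 56471897, had 115 reads over 620 nt, was listed nearly in full at 619 nt and reached a coverage of 12.

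Medians show the same side by side. The members had a median of 94 reads, a highest coverage of 18 and a profile of 332 nt. The 10 clusters at 27 to 28 Mb had medians of 42.5 reads, a coverage of 16 and 157 nt, and the 16 at 26 to 27 Mb medians of 7.5 reads, 6.5 and 62.5 nt. These are all clusters of each megabase, and their genes were not checked. With clusters under 20 reads left out, the 8 clusters at 27 to 28 Mb had medians of 49 reads, a coverage of 17 and 174.5 nt. The 5 left at 26 to 27 Mb had medians of 76 reads, a coverage of 17 and 296 nt, much nearer to the members. Start positions were filled to 33.9% in the members, 34.6% at 27 to 28 Mb and 23.8% at 26 to 27 Mb, or 28.3% there with 20 or more reads. The median share of reads nearer the upstream end was 67.0% in the members, 66.7% at 27 to 28 Mb and 50% at 26 to 27 Mb. With 20 or more reads it was 66.9% at 27 to 28 Mb and 66.2% at 26 to 27 Mb, so this lean was not particular to the members. All these sets were chosen with their reads known and no replicate is kept apart, so the differences were not tested.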

How the data were processed

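The submitters' processing notes name Bowtie and the build hg19 for the 2 eIF3a samples. The sources used here do not state the cluster caller, its filters, or how duplicate and multiply mapping reads were treated. The authors deposited 1 list of intervals in which each entry has a strand, a profile of coverage in steps of length and height, and a signal. That deposited signal was the highest coverage in whole reads, not normalized, and matched the top of the profile throughout. The units were read from the values, as the list has no header. Coordinates count from 1, with the list read as 0-based.

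Profiles were split into 25-nt reads, which was exact for all 3113 distinct profiles and tested on simulated data. Entries of 1 strand and profile that together fitted within the profile were 1 cluster, and its listed share was taken from its widest entry. Runs of equal spacing between read starts were searched over all clusters, reversed across strands. The members, the run search and the comparisons were chosen with earlier results of these data known. All 3 members are named; other clusters follow a rule of reads, or of the smallest summed difference in log2 reads and log2 profile length. No test was run, since the read numbers chose the members and the list names no replicate. Python 3.11.15, numpy 2.4.6, scipy 1.17.1 and matplotlib 3.10.9 were used.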

Additional observations from a re-analysis of the deposited data

How the results depend on the processing

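Of 39 alternative values, 24 stayed close to the reported ones: the reads of each member by summed starts, by read lengths of 24 or 26 nt or by 1 read per start, the listed shares with both ends counted, the places by reads with each distinct profile counted once, the 30-nt stretches, the 60-nt stretches of HIST2H2AA3, HIST2H2BF without the run common to the H2B genes, and the median at 27 to 28 Mb with 20 or more reads. Many of these 24 could not move far. Summed starts and 1 read per start had to give the same reads, because the split was exact and no start held more than 1 read. Read lengths of 24 or 26 nt, or counting both ends, can change a value only slightly. These are checks of the arithmetic and say little about how firm the results are. The other 15 moved. Leaving out the run common to the H2B genes, chosen after seeing the data, gave 57 reads for HIST2H2BE (against 73). It gave 78 for HIST2H2BF (against 94), which is within its approximate Poisson interval. The 57 reads of HIST2H2BE are just under the lower limit of 57.2 there. The run of 16 reads was left out of each gene, a change that such an interval does not measure. Counting HIST2H2BF as close and HIST2H2BE as moved therefore means little. Ranked by highest coverage the members took places 4 (HIST2H2AA3), 49 (HIST2H2BF) and 249 (HIST2H2BE), and by reads per nt places 59, 79 and 274. Measured as uncovered stretches, the longest gap was 0 nt in each member, since the starts lay closer than a read length. Stretches of 40 nt with 10 or more starts matched 0 other clusters, and stretches of 60 nt matched 0 for HIST2H2AA3 and 1 for each H2B gene, namely the other, because the common run is too sparse to fill a 40-nt stretch. The median of chromosome 6 reads was 76 at 26 to 27 Mb with 20 or more reads, and 19 over 26 to 28 Mb together. No paired analysis was possible because the eIF3a list names no replicate, and the m6A samples were not used here. Library depth is unknown, and no value has a replicate error.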
